A study of Mus musculus with 4 samples.

Results

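The 10 genes described here (Slc1a2, Slc1a3, Aqp4, Kcnj10, Gja1, Gjb6, Glul, Aldh1l1, Aldoc and Slc4a4) encode transporters, channels and enzymes that astrocytes use to clear and process what neurons release. They were chosen by name, and all 10 were found, in 14 of the 23750 transcript rows of the deposited table, which holds 18674 gene names. The level of a gene is the mean of its rows. The lumbar spinal cord was taken from wild type (WT) and G93A animals. G93A mice express a mutant human SOD1 and develop motor neuron disease. Both genotypes received either vehicle (PBS) or spermidine (SD), a natural polyamine, 4 times a week for 30 days. The study's methods give an age of 100 days for the sequenced mice and, for SD, intraperitoneal injections at 5 mg/kg, in a section that names saline as the vehicle. The G93A H1 high-expresser males were bred with B6/SJLF1 females, only males entered the treatment studies, and the transgene comes on top of the mouse Sod1 gene, which WT mice also have. Of the 4 libraries, 1 per condition, those of WT mice are called WT vehicle and WT + SD, and those of G93A mice G93A vehicle and G93A + SD. With 1 library per condition, no spread between replicates can be given, and differences between conditions were not tested. How many animals each library pools is not given in the sources used here.

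Astrocytes take up glutamate after synaptic release through Slc1a2 (GLT-1) and Slc1a3 (GLAST), convert it to glutamine with glutamine synthetase (Glul) and return the glutamine to neurons. Their end-feet on blood vessels carry the water channel Aqp4 and the potassium channel Kcnj10 (Kir4.1), and gap junctions of connexin 43 (Gja1) and connexin 30 (Gjb6) join neighbouring astrocytes. Slc4a4 moves sodium together with bicarbonate across the membrane, Aldoc (aldolase C) is a glycolytic enzyme, and Aldh1l1 oxidizes 10-formyltetrahydrofolate in folate metabolism and is widely used as an astrocyte marker. Loss of astrocytic glutamate uptake has long been studied in amyotrophic lateral sclerosis (ALS), because motor neurons are sensitive to excess glutamate. Some of these genes are not restricted to astrocytes: Glul and Kcnj10 are also expressed by oligodendrocytes.

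Values are RPKM, that is, read numbers divided by transcript length and by library size, so that levels can be compared between genes. The depth was estimated at 36800000 to 38600000 fragments per library, a range of 1.05 times, from the commonest step in the low values. On that estimate the least covered of the 13 rows with a known length, that of Aldh1l1, rested on 1688 fragments in its lowest library. The spread between animals is unknown. In bulk tissue, fewer cells of a type and less RNA per cell cannot be told apart.

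All 10 genes were detected in every library. Over the 4 libraries Aldoc had the highest mean at 704 RPKM, followed by Glul at 369, Aqp4 at 259, Kcnj10 at 253, Slc1a2 at 219, Gja1 at 157, Slc4a4 at 78.9, Slc1a3 at 42.2, Gjb6 at 41.7 and Aldh1l1 at 27.6 RPKM. Some neighbours in this order changed places between libraries. Kcnj10 lay above Aqp4 in both WT libraries and below it in both G93A libraries, and Gjb6 lay above Slc1a3 in both WT libraries and below it in both G93A libraries.

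**Figure D1:**
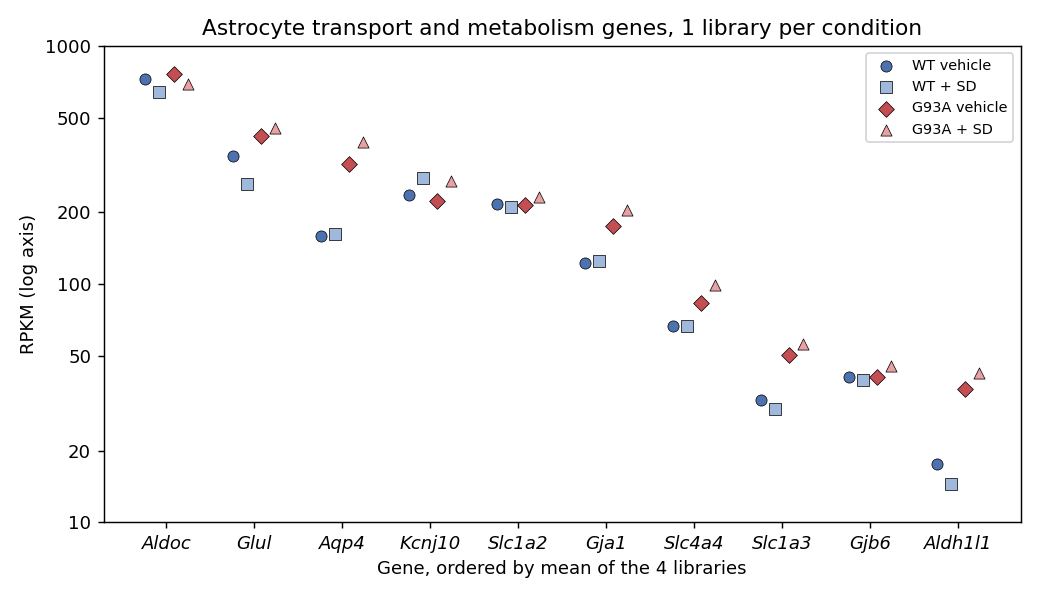
RPKM (log axis) of the 10 genes in the 4 libraries, 1 point per library, ordered by the mean. The G93A points lie above the WT points most clearly for Aldh1l1 (36.4 and 42.2 against 17.5 and 14.4 RPKM) and Aqp4. For Aldoc, Kcnj10 and Slc1a2 the ranges of the G93A and WT points overlap.

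The first comparison was of G93A with WT cord under vehicle. Aldh1l1, Aqp4 and Slc1a3 were at least 1.5-fold higher in the G93A vehicle library, and 0 of the 10 were at least 1.5-fold lower. Of all 18237 gene names above 0 in either library, 20.7% were higher by that measure and 10.5% were lower, and of the 8847 better expressed names (averaging 5 RPKM or more), 10.2% were higher and 3.8% lower. The median log2 ratio of the 10 genes was 0.30, against 0.07 over all names and 0.03 over the better expressed names. The 10 genes fell into a group with raised values (Aldh1l1, Aqp4, Slc1a3, Gja1, Slc4a4 and Glul, 1.21-fold to 2.07-fold higher) and a group with nearly level values (Aldoc, Gjb6, Slc1a2 and Kcnj10, from 0.950-fold to 1.06-fold). Slc1a3, at 1.54-fold, passed under the threshold with median-ratio scaling.

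The same comparison under SD used the other pair of libraries, and the log2 ratio was larger than under vehicle for each of the 10 genes, as it was for 46.3% of the better expressed names. Against WT + SD, the G93A + SD library was higher by 1.5-fold or more for Aldh1l1, Aqp4, Slc1a3, Glul and Gja1, and lower by that much for 0 genes. Over all 18266 names above 0 in either library 23.8% were higher and 12.8% lower, and over the better expressed names 12.4% were higher and 7.79% lower. The median log2 ratio of the 10 genes was 0.64, against 0.07 over all names and 0.02 over the better expressed names. Slc4a4, at 1.49-fold, lay just under the threshold. At 2-fold, Aldh1l1 was higher under vehicle (13.7% of all names and 4.66% of the better expressed ones were), with Aqp4 just under that threshold. Under SD, 2 genes were 2-fold higher (15.9% and 6.15%), and at 1.2-fold 6 genes were higher under vehicle (34% and 24.1%). For 7 of the 10 genes both G93A libraries lay above both WT libraries, and this held for 39.7% of all names and for 42.3% of the better expressed ones, while the opposite order held for 28% of all names. The exceptions were Slc1a2, Kcnj10 and Aldoc.

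**Figure D2:**
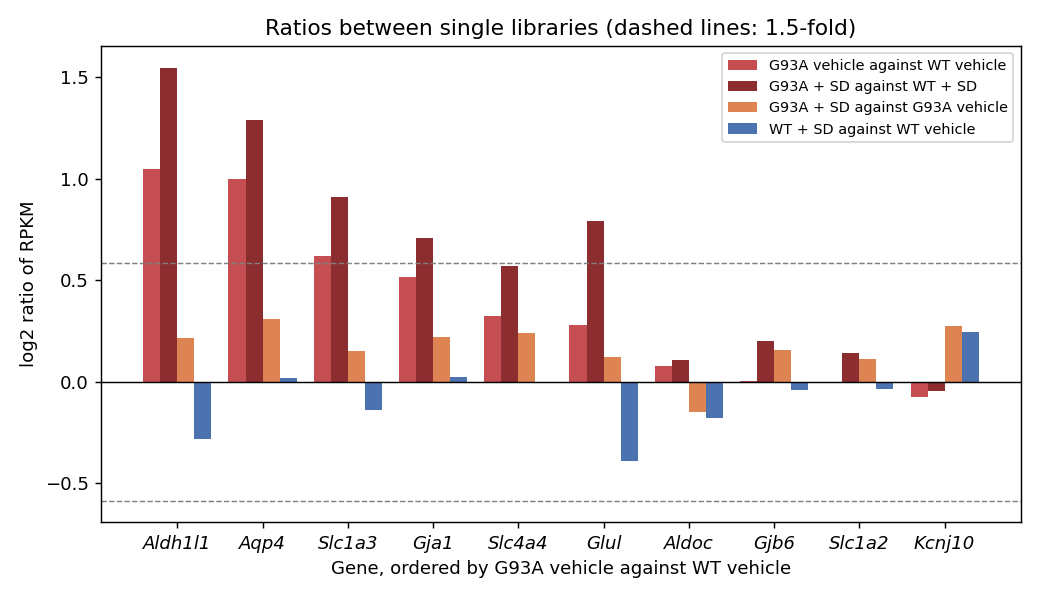
Log2 ratios of RPKM between single libraries for the 10 genes in 4 comparisons, with dashed lines at 1.5-fold. The bars for G93A against WT reach 1.05 (vehicle) and 1.55 (SD) for Aldh1l1, whereas no bar for SD against vehicle reaches a dashed line.

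Among the glutamate transporters, Slc1a3 and Slc1a2 differed in their pattern. Slc1a3 (chromosome 15, 8634124 to 8710764, minus strand of GRCm38) had 32.7 RPKM in WT mice under vehicle and 29.8 under SD, against 50.4 and 55.9 in G93A mice. Both G93A libraries were above both WT libraries, by 1.54-fold under vehicle and 1.88-fold under SD. Slc1a2 (chromosome 2, 102658659 to 102790784, plus strand) had 216 RPKM in WT mice under vehicle and 211 under SD, against 216 and 233 in G93A mice. Its mean level was thus almost the same in both vehicle libraries, with a log2 ratio of -0.01. Within a library, where no scaling between libraries enters, the level of Slc1a2 was 6.61 times that of Slc1a3 in WT vehicle and 7.10 times in WT + SD, but 4.28 times in G93A vehicle and 4.17 times in G93A + SD. Slc1a2 remained the more abundant transporter in every library, and the summed RPKM of both was 249 in WT mice under vehicle and 241 under SD, against 266 and 289 in G93A mice.

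The mean of Slc1a2 combines 3 transcript rows that did not move together. The rows differ at their 3′ end: NM_001077515 and NM_001077514 splice from exon 10 into exon 11, while NM_011393 reads on past the splice site of exon 10, so that the encoded proteins end differently. The coding ends that set these forms apart are shown because the rows with each end went opposite ways. Each is printed 5′ to 3′ from the GENCODE M21 transcript paired with the RefSeq row, with the stop codon in capitals. The end of NM_011393 lies at chr2:102777656-102777694 (GRCm38, plus strand, 12 codons before the stop), and that of NM_001077515 at chr2:102781463-102781534 (plus strand, 23 codons before the stop).
NM_011393: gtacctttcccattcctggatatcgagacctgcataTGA
NM_001077515: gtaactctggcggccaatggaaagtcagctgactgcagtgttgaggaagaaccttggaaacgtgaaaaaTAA

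NM_011393, the form with the short end, had 127 RPKM in WT mice under vehicle and 122 under SD, against 107 and 107 in G93A mice. NM_001077515 had 267 RPKM in WT mice under vehicle and 262 under SD, against 276 and 303 in G93A mice. NM_001077514, which has the same end with a longer last exon, had 255, 250.2, 263 and 289 RPKM in the same order. It contains 1911 of the 1957 exonic bases of NM_001077515, so these rows do not differ in the last exon alone. The short-end row was therefore at 84.0% of its WT vehicle value in G93A vehicle and at 84.1% in G93A + SD, while the other rows were at 103% to 104% and at 113% to 114%. The ratio of NM_001077515 to NM_011393 was 2.09 in WT mice under vehicle and 2.16 under SD, against 2.58 and 2.83 in G93A mice. Both G93A libraries thus lay above both WT libraries in this ratio. NM_011393 shares 1676 of its 2127 exonic bases with NM_001077515, and how reads from shared exons were assigned is not stated. The absolute level of each row and the ratio between rows are therefore uncertain. An antisense gene, Gm13872, overlaps 189 exonic bases of each row, and no source says whether strand was used in counting.

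**Figure D3:**
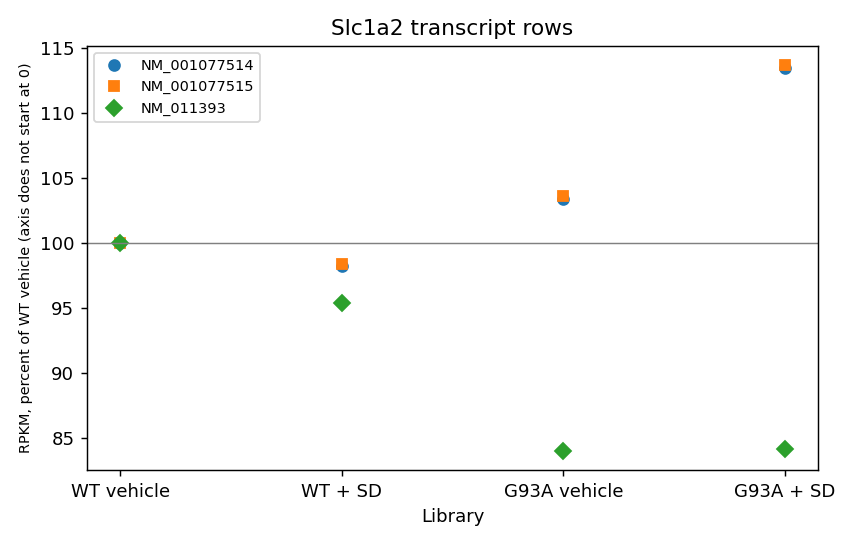
RPKM of the 3 Slc1a2 transcript rows in each library, as a percentage of the WT vehicle library (the axis does not start at 0). In both G93A libraries NM_011393 lies at 84.0% and 84.1%, below its WT values, and the other rows lie above 100%.

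Glul, which makes glutamine from the glutamate taken up (chromosome 1, 153899944 to 153909723, plus strand), had 343 RPKM in WT mice under vehicle and 262 under SD, against 417 and 454 in G93A mice. The G93A libraries were again the higher ones, by 1.21-fold under vehicle and 1.73-fold under SD. The WT + SD library was at 0.764 times WT vehicle, and G93A + SD at 1.09 times G93A vehicle. Of the 53-base windows of Glul, 13.1% are found in other genes too, among them the pseudogene Glns-ps1, and 116 of its exonic bases overlap Teddm2 on the other strand, so that its level is uncertain to that extent.

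In the rest of the glutamate and glutamine cycle, 1 of 16 genes was higher by 1.5-fold or more under vehicle and 1 was lower, with a median log2 ratio of -0.04. Under SD 2 were higher and 3 lower, with a median of -0.26, below 0 where that of the 10 genes was above it. The gene that was higher was Slc1a4, a transporter of small neutral amino acids, with 17.3 RPKM in WT vehicle and 29.7 in G93A vehicle. The gene that was lower was Slc17a6, the vesicular glutamate transporter of many spinal excitatory neurons, with 58.7 and 36.5 RPKM. Slc38a1, a glutamine transporter, had 50.8 RPKM in WT vehicle and 55.6 in G93A vehicle, and Got1, the cytosolic aspartate aminotransferase and the most abundant gene of this list, had 149.9 and 122 RPKM. Neither reached 1.5-fold under vehicle, whereas Got1 was at 156.8 RPKM in WT + SD and 99.0 in G93A + SD, a log2 ratio of -0.66.

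Of 7 genes for GABA and glycine uptake and breakdown, 2 were lower by 1.5-fold or more under vehicle and 1 was higher, with a median log2 ratio of -0.32. By any amount 6 of the 7 were lower, where 45.9% of the better expressed names were, and under SD 2 were 1.5-fold lower and 0 higher, with a median of -0.33. Slc6a11, the GABA transporter GAT-3 of astrocytes, had 106 RPKM in WT mice under vehicle and 104 under SD, against 58.7 and 49.1 in G93A mice. It was thus lower in both G93A libraries, unlike the astrocyte glutamate transporters. Slc6a5, the glycine transporter of glycinergic neurons, had 45.9, 50.4, 21.5 and 17.5 RPKM in the same order.

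At the end-feet, the water channel was higher in both G93A libraries and the potassium channel was not. Aqp4 (chromosome 18, 15389496 to 15410982, minus strand) had 159.5 RPKM in WT mice under vehicle and 162 under SD, against 319 and 396 in G93A mice. The WT libraries were within 1.01-fold of each other, and the G93A libraries lay above them, by just under 2-fold under vehicle and by 2.45-fold under SD. Kcnj10 (chromosome 1, 172341210 to 172374085, plus strand) had 236 RPKM in WT mice under vehicle and 279.8 under SD, against 224 and 271 in G93A mice. Its libraries paired by treatment and not by genotype. Both SD libraries lay above both vehicle libraries, and G93A was 0.950 times WT under vehicle and 0.970 times under SD. The level of Aqp4 relative to Kcnj10 was 0.676 in WT mice under vehicle and 0.578 under SD, against 1.42 and 1.46 in G93A mice.

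Partners of these channels were described from a list of 16 genes. Of these, 4 were at least 1.5-fold higher in G93A vehicle and 1 was lower, and under SD 7 were higher and 1 lower, with median log2 ratios of 0.32 and 0.39. Fxyd1, a small regulator of the sodium pump, had 11.6 RPKM in WT mice under vehicle and 10.6 under SD, against 35.2 and 46.1 in G93A mice. Mlc1, an astrocyte end-foot membrane protein, had 79.7, 74.5, 165 and 177 RPKM, and Atp1b2, the sodium pump subunit typical of astrocytes, had 415, 426, 708 and 804 RPKM. In each of these the G93A libraries were the higher ones, as for Aqp4. The gene that was lower was Atp1b1, the sodium pump subunit typical of neurons, with 716, 746, 469 and 410.3 RPKM. Slc12a2, a sodium, potassium and chloride cotransporter, had 55.1 RPKM in WT vehicle and 45.0 in G93A vehicle, less than 1.5-fold apart.

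Of the gap junction proteins, Gja1 was higher in G93A cord and Gjb6 was nearly level. Gja1 (chromosome 10, 56377330 to 56402513, plus strand) had 123 RPKM in WT mice under vehicle and 125 under SD, against 176 and 205 in G93A mice. The G93A libraries were 1.43-fold and 1.63-fold above the WT libraries with the same treatment. Gjb6 (chromosome 14, 57123303 to 57133611, minus strand) had 40.7 RPKM in WT mice under vehicle and 39.6 under SD, against 40.8 and 45.5 in G93A mice. Under vehicle the log2 ratio was 0.01, and the order of the vehicle libraries turned with median-ratio scaling. The ratio of Gja1 to Gjb6 was 3.03 in WT mice under vehicle and 3.17 under SD, against 4.31 and 4.50 in G93A mice.

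Among 11 other gap junction and junction scaffold genes, 2 were at least 1.5-fold higher and 2 lower in G93A vehicle, with a median log2 ratio of -0.11, and under SD 3 were higher and 3 lower, with a median of -0.17. Gjb1, the oligodendrocyte connexin 32 and the most abundant gene of this list, had 51.8 RPKM in WT mice under vehicle and 44.2 under SD, against 40.7 and 30.3 in G93A mice. Gjc3, another glial connexin, had 44.1, 48.5, 33.8 and 31.1 RPKM in the same order. Both were lower in the G93A libraries, unlike Gja1. Tjp1, a junction scaffold protein, was higher, with 18.8, 20.03, 30.8 and 31.9 RPKM.

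Slc4a4, the bicarbonate transporter (chromosome 5, 88886818 to 89239653, plus strand), had 66.7 RPKM in WT mice under vehicle and 66.4 under SD, against 83.7 and 98.8 in G93A mice. The WT libraries were almost equal, and the G93A libraries were 1.25-fold and 1.49-fold higher. Its 2 rows gave the same pattern, but all 3494 bases of the shorter transcript are contained in the longer, so they are not separate evidence. Of 10 other genes of bicarbonate and pH handling, 0 were at least 1.5-fold higher and 0 lower in G93A vehicle, with a median log2 ratio of -0.20, and under SD 0 were higher and 1 lower, with a median of -0.35. Car2, a carbonic anhydrase found in oligodendrocytes and the most abundant of them, had 189.7 RPKM in WT vehicle and 251 in G93A vehicle. Slc4a10 and Car14 had 17.6 and 33.2 RPKM in WT vehicle and 12.2 and 23.4 RPKM in G93A vehicle.

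The metabolic enzymes also differed from each other. Aldh1l1 (chromosome 6, 90486427 to 90600203, plus strand) had 17.5 RPKM in WT mice under vehicle and 14.4 under SD, against 36.4 and 42.2 in G93A mice. It had the largest ratio of the 10 genes in both comparisons of genotype, 2.07-fold under vehicle and 2.92-fold under SD. An antisense gene, Gm15756, overlaps 106 of its exonic bases. Aldoc (chromosome 11, 78322968 to 78327781, plus strand) had 724 RPKM in WT mice under vehicle and 639.8 under SD, against 764 and 689.6 in G93A mice. The SD library was the lower one in both genotypes, and the ranges of the WT and G93A libraries overlapped. The share of Aldoc in the summed RPKM of the 10 genes was 36.9% in WT mice under vehicle and 34.95% under SD, against 32.8% and 27.7% in G93A mice.

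Of 21 other genes of energy and one-carbon metabolism, 7 were at least 1.5-fold higher in G93A vehicle and 0 were lower, with a median log2 ratio of 0.26, and under SD 7 were higher and 0 lower, with a median of 0.21. Aldh1l2, the mitochondrial counterpart of Aldh1l1, had 3.80 RPKM in WT mice under vehicle and 3.97 under SD, against 10.2 and 9.43 in G93A mice. Slc16a1, the lactate transporter MCT1, had 22.6, 25.8, 47.3 and 51.4 RPKM. Both were higher in the G93A libraries, as Aldh1l1 was. The glycolytic partner Aldoa, at 384 RPKM in WT vehicle and 361 in G93A vehicle, stayed level as Aldoc did, and the glycogen phosphorylases Pygb and Pygm had 96.7 and 33.2 RPKM in WT vehicle and 86.1 and 29.2 RPKM in G93A vehicle.

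No gene of the 10 differed 1.5-fold between SD and vehicle in either genotype. Between G93A + SD and G93A vehicle, 0 of the 10 genes were at least 1.5-fold higher and 0 were lower, where 8.89% of 18300 names were higher and 7.46% lower, and where 0.757% and 0.622% of the better expressed names were. All but Aldoc were higher in G93A + SD by some amount, 9 of 10 against 49.9% of the better expressed names. The median log2 ratio was 0.19, against -0.00036 over those names, and the ratios ranged from -0.15 for Aldoc to 0.31 for Aqp4. For Slc1a2, Slc1a3, Aqp4, Gja1, Gjb6, Glul, Aldh1l1 and Slc4a4 the G93A + SD library was the highest of the 4, as it was for 36.7% of the better expressed names. Of other lists, some moved with this and some did not. By any amount 14 of 15 reactive astrocyte genes were higher in G93A + SD than with vehicle. Of these 7 were higher by 1.5-fold or more, and the median log2 ratio of the list was 0.54. Higher by any amount were also 15 of 19 other astrocyte genes (median 0.13), 13 of 16 end-foot genes (0.11) and 9 of 13 microglial genes (0.12). In energy and one-carbon metabolism, 7 of 21 genes were higher and 14 lower (median -0.06). In the glutamate and glutamine cycle, 7 of 16 were higher and 9 lower (-0.06). Of the GABA and glycine genes 3 of 7 were higher (-0.04), and of the bicarbonate and pH genes 4 of 10 (-0.03). The part of these lists in the values of the 10 genes was not tested. Between WT + SD and WT vehicle, 0 of the 10 genes reached 1.5-fold in either direction, where 7.4% of 18112 names were higher and 8.82% lower, and 0.328% and 0.61% of the better expressed names were. The median log2 ratio was -0.04. In WT cord 3 genes were higher in the SD library, where 56.5% of the better expressed names were, and 7 were lower, with log2 ratios from -0.39 for Glul to 0.25 for Kcnj10. At 1.2-fold, 2 genes were higher with SD in G93A mice (17.6% of all names and 5.84% of the better expressed ones) and 2 were lower with SD in WT mice (15.3% and 3.61%). The comparisons with a shared library are not independent of each other, since a value that is high in G93A + SD raises both ratios it enters.

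Other genes of the same cells and of other cell types also differed between the G93A and WT libraries. Of 15 reactive astrocyte genes 15 were at least 1.5-fold higher in G93A vehicle, with a median log2 ratio of 2.95, and their summed level was 575 RPKM in WT mice under vehicle and 486 under SD, against 3504 and 4624 in G93A mice. Of these genes, Steap4 was listed at 0 in WT + SD. Gfap, the intermediate filament of astrocytes, had 441, 386, 2269 and 2707 RPKM in that order, and Serpina3n, a secreted protease inhibitor, had 27.8, 24.5, 473 and 772 RPKM. The log2 ratio of Aldh1l1, the highest among the 10 genes, was 1.05 under vehicle, beside 2.36 for Gfap. Of 19 other astrocyte genes, 7 were at least 1.5-fold higher and 1 lower, with a median log2 ratio of 0.28, close to the 0.30 of the 10 genes. Slc14a1, a urea transporter, had 10.3 RPKM in WT vehicle and 44.5 in G93A vehicle, and Sox9, an astrocyte transcription factor, had 5.76 and 14.5 RPKM. S100b, the most abundant gene of this list, had 465 and 411 RPKM, and Itih3 had 65.1 and 28.6 RPKM. By any amount, 15 of these 19 genes were higher and 4 lower under vehicle, where 54.1% of the better expressed names were higher.

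Microglial genes were higher too, 12 of 13 by at least 1.5-fold under vehicle, with a summed level of 236 RPKM in WT mice under vehicle and 214 under SD, against 1422 and 1539.7 in G93A mice. Of neuronal genes, 5 of 10 motor neuron genes were at least 1.5-fold lower and 0 higher under vehicle (8 of 10 lower by any amount), with summed levels of 460.1, 438, 268 and 188 RPKM, and 2 of 8 genes of other neurons were lower and 0 higher (8 of 8 lower by any amount), with 1989, 2006, 1317 and 1148 RPKM. Oligodendrocyte genes summed to 9164, 9456, 7625 and 7011 RPKM, with 1 of 9 higher and 0 lower under vehicle. No gene of these 4 lists was listed at 0 in any library. The part of these shifts in the ratios of the 10 genes was not tested. Skeletal muscle genes summed to at most 2.16 RPKM in any library. Genes of oligodendrocyte precursors (2 of 7 higher, 0 lower under vehicle) and of endothelial and mural cells (0 of 8 and 0) had median log2 ratios of 0.17 and -0.03. Of 5 Schwann cell genes 3 were higher and 1 lower under vehicle, but Pmp22, at 1.45-fold, made up 55.98 of their 56.52 RPKM in WT vehicle. Of 4 ependymal genes 3 were higher under vehicle and 1 under SD, with median log2 ratios of 0.81 and 0.21. In WT + SD, 5 of 5 globin and heme genes were higher by 1.5-fold or more against WT vehicle, with summed levels of 34.4 RPKM in WT mice under vehicle and 69.3 under SD, against 51.7 and 55.7 in G93A mice. Globin copies are near-identical, so their separate values are uncertain. The part of blood in the values of Glul, Aldh1l1 or Kcnj10 in WT + SD was not tested.

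**Figure D4:**
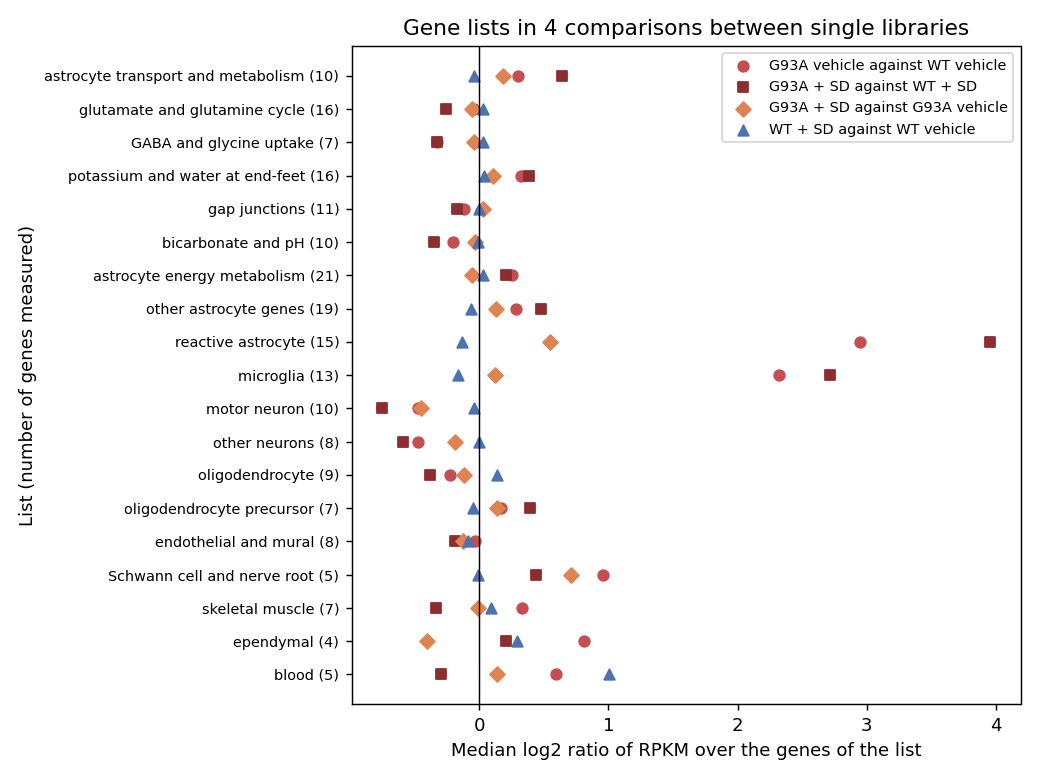
Median log2 ratio of RPKM over the genes of each list (number of genes measured in parentheses) in the 4 comparisons between single libraries. The 10 astrocyte transport and metabolism genes lie at 0.30 and 0.64 for G93A against WT, far below the reactive astrocyte genes at 2.95 and 3.95 and the microglial genes at 2.32 and 2.72, while neuronal lists lie below 0.

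The genes with the pattern most like Aldh1l1 over the 4 libraries, by Euclidean distance of centred log2 RPKM among the 8847 better expressed genes, were S100a1 (distance 0.062), Lamb2 (0.072) and Lix1l (0.083). S100a1, a calcium-binding protein, had 88.3 RPKM in WT mice under vehicle and 73.2 under SD, against 188 and 206 in G93A mice. For Kcnj10, the gene with the lowest ratio, they were Mrpl9 (0.046), Rbm43 (0.057) and 1110059E24Rik (0.060). With 4 libraries these distances describe the libraries only.

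Promoters are shown for the genes that reached 1.5-fold in either comparison of genotype, with the exception of Aqp4, which is named only. RefSeq promoter windows (GRCm38.p6) were searched for 9 of the 10 genes, as 11 windows. Each line holds the 250 bases before the annotated start, 5′ to 3′ on the strand of the gene. Capitals mark the letters TTCNNNGAA (STAT motif), TGANTCA (AP-1 motif), GGGCGG (GC box) or CCAAT (the box of that name) on either strand. The windows lie at chr6:90550543-90550792 (plus strand) for Aldh1l1, chr15:8710808-8711057 (minus strand) for Slc1a3, chr10:56377050-56377299 (plus strand) for Gja1 and chr1:153899679-153899928 (plus strand) for Glul. These are RefSeq starts: the windows of Aldh1l1, Slc1a2, Slc4a4 and Aldoc lie wholly or partly inside the GENCODE span of the gene.
Aldh1l1: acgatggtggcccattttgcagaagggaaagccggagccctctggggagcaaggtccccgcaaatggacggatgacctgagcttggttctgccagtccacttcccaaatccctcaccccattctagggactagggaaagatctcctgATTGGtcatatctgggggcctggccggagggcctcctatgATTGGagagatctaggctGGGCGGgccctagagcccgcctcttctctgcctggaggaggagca
Slc1a3: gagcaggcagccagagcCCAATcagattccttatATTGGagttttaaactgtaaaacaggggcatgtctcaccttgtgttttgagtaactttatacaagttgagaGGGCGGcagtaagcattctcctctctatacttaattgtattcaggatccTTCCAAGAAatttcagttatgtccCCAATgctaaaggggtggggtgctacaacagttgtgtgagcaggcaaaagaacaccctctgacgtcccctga
Gja1: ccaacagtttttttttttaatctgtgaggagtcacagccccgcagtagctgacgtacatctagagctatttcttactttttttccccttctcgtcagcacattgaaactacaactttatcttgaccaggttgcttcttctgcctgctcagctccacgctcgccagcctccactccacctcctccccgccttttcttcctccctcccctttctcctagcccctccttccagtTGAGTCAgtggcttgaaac
Glul: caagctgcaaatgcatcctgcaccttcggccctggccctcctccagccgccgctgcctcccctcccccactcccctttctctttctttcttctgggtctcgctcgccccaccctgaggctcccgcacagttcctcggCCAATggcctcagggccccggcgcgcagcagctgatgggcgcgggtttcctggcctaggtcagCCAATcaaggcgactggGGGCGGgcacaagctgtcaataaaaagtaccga

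Among these windows the STAT letters stood in that of Slc1a3, 96 bases before the start, and the AP-1 letters in that of Gja1, 19 bases before it. The STAT letters occur in 7.02% and the AP-1 letters in 6.75% of all 32851 promoter windows of this length. Of the 11 windows searched, 6 held a GC box, against 32.7% of all windows, and 5 held CCAAT, against 33.8%. The windows of Aldh1l1, Slc1a3 and Glul held both, and Slc4a4 had them in separate windows. Of the genes with level values, Kcnj10 held both boxes, Aldoc held the STAT letters and a GC box in separate windows, and the windows of Slc1a2 and Gjb6 held none of the 4 motifs. A match of letters is a description and not a binding site.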

How the data were processed

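PolyA RNA of 4 lumbar spinal cord libraries, 1 per condition, was sequenced. Per the study's methods, the authors aligned 53 bp reads to GRCm38 using STAR and ran HTSeq with Ensembl genes. The step from these counts to the table is not stated. The authors deposited 1 table of RefSeq transcripts whose values were taken as RPKM: the header names no unit, and the products of value and transcript length added up to almost equal totals. The 3 other columns hold the authors' own ratios between libraries and were not used.

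Rows of a name were averaged, and a name counted as higher or lower from 1.5-fold, with no pseudocount. A name at 0 in both libraries was left out, and a name at 0 in 1 of them was counted. The 10 genes, the lists and the tests were chosen with earlier results of these data known. The rule for named genes took the 10 genes and, from each list, the highest mean and the 2 largest rises and 2 largest falls in G93A vehicle among genes averaging 5 RPKM or more, and lists of other cell types are mostly given by their sums. Some genes that the rule takes are not reported here. Depth was estimated from the commonest step of RPKM times length on transcripts over 500 bases, with GENCODE M21 lengths for 97% of rows, so no confidence interval was derived. Alternatives were median-ratio scaling, pseudocounts of 0.1 and 1 RPKM, the highest, the sum or any of a name's rows, thresholds of 2-fold and 1.2-fold, and a background of names averaging 5 RPKM. Calculations were tested on simulated data and run in Python 3.11.15 with pandas 2.3.3 and numpy 2.4.6.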

Additional observations from a re-analysis of the deposited data

Results flagged for a closer look

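For 6 of the 10 genes the SD library was lower than vehicle in WT mice and higher than vehicle in G93A mice. The same directions held for 22.1% of all names and for 19.2% of the names averaging 5 RPKM or more. Among reactive astrocyte genes, 13 of 15 were lower with SD in WT mice and 14 of 15 higher with SD in G93A mice. In WT mice 4 of these were at least 1.5-fold lower, among them Steap4, at 0 in WT + SD. Only Timp1 was that much higher, from 0.185 RPKM under vehicle to 0.304 under SD. Over all names 8.82% were that much lower and 7.4% higher. Lower in WT and higher in G93A mice were 13 and 15 of 19 other astrocyte genes, and 10 and 9 of 13 microglial genes. These counts were 10 and 7 of 21 for energy and one-carbon metabolism, and 5 and 7 of 16 for the glutamate and glutamine cycle. For the end-foot list they were 7 and 13 of 16. The log2 ratio in G93A minus that in WT was 0.51 for Glul, 0.50 for Aldh1l1, 0.29 for Slc1a3, 0.25 for Slc4a4, 0.20 for Gjb6 and 0.15 for Slc1a2. The same difference of 0.15 for Slc1a2 also separates the effect of genotype under SD (0.14) from that under vehicle (-0.01), which have opposite signs. The vehicle value lies close to 0 and was 0.05 with the row of the highest mean. All differences given here rest on 1 library per group and were not tested. For Slc1a2, Gjb6 and Slc4a4 the value in WT mice was within 0.04 of 0.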

How the results depend on the processing

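Of 96 recomputed counts and medians of the 10 genes, 91 stayed within 1.5 times the reported count or within 0.1 of the reported median, and 5 moved, all with the threshold. For G93A against WT under vehicle, 1 gene was higher at 2-fold and 6 at 1.2-fold, and under SD 2 genes were higher at 2-fold. For SD against vehicle at 1.2-fold, 2 genes were higher in G93A mice and 2 lower in WT mice. Of 200 values of single genes, 2 changed sign, both close to 0: for G93A against WT under vehicle, Slc1a2 was 0.05 with its row of the highest mean, and Gjb6 was -0.06 with median-ratio scaling. Slc1a3 in the same comparison went from 0.62 to 0.56 with that scaling, under 1.5-fold. No paired analysis was possible because the groups share fewer than 2 replicate numbers, and a fit of genotype and treatment without their interaction was not run. The least covered row with a length rested on an estimated 1688 fragments, and no spread between animals can be given.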

Other observations

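Cbs, a gene of the astrocyte list that makes cystathionine from homocysteine and serine, was chosen after its values were seen. It had 13.6 RPKM in WT mice under vehicle and 6.54 under SD, against 12.4 and 7.43 in G93A mice. Both SD libraries thus lay below both vehicle libraries, by 2.08-fold in WT and 1.68-fold in G93A mice.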
